A study of Mus musculus with 9 samples.

Results

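The livers compared here are those of mice 20 to 22 months old given PD-0332991 and those of untreated mice 2 months old, 3 libraries each, 6 of the 9 libraries of the series. Both groups are C57Bl6, and total RNA of whole liver was sequenced. The treated mice ate chow holding 450 mg/k of the drug (the unit is written so in the labels) for 2 weeks, and the young mice ate standard chow. The other 3 libraries, from untreated mice 20 to 22 months old, are outside the contrast and appear only as values beside it and through the shared estimate of the spread. The groups compared differ in age and in the drug at once, so the contributions of age and of the drug cannot be told apart in this comparison. Whether each library stands for its own mouse is not stated in the labels, and the p-values cover only the spread among these libraries.

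PD-0332991, also called palbociclib, blocks the kinases CDK4 and CDK6, which with D-type cyclins phosphorylate the retinoblastoma protein and so free E2F transcription factors to switch on genes of DNA replication and mitosis. Most hepatocytes of an adult liver are not dividing. They make plasma proteins, lipoproteins and bile acids, store and burn fat and sugar, and answer inflammatory signals with the acute phase response, in which NF-kB and STAT3 raise the output of defence proteins. In RNA of a whole liver, fewer cells of a type and less RNA per cell cannot be told apart.

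The deposited values are TPM, relative abundances of transcripts corrected for transcript length and library size, from which the sequencing depth cannot be read. The values listed for a library sum to between 53.1 and 57.66% of the total to which TPM is scaled, so a TPM or a sum of markers here is relative to a total of which only that part is listed. A gene was tested where it reached 1 TPM in at least 3 of the 9 libraries, and was called where its limma adjusted p was under 0.05. A gene below 1 TPM in every library of a group was thus tested only through the other groups. A fold change is the treated minus the young mean of log2(TPM + 0.5), given with its standard error (a number alone in parentheses after a gene is its fold change), and understates the change of low genes. Over all tested genes, pairs within a group correlated with r from 0.9854 to 0.988 (young) and from 0.9856 to 0.9899 (treated), and a young with a treated library with r from 0.9638 to 0.9778. A TPM of 1 was reached by 9818 to 9992 genes in young and 9546 to 9614 in treated libraries. Of 11 hepatocyte markers, 10 reached 1 TPM in at least 3 libraries. Alb, the albumin gene, was listed at 0 in every library, so a 0 is read here only as listed at 0. The summed hepatocyte markers lay between 50480 and 53640 TPM in young and between 48280 and 51110 TPM in treated livers.

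Treated old and young livers differed in 699 of 10161 tested genes (6.88%), of which 263 were higher (2.59%) and 436 lower (4.29%) in treated livers. An absolute log2 fold change of at least 1 was reached by 177 of them (1.74%), 100 higher and 77 lower. All 3 treated libraries lay above all 3 young ones for 970 genes (9.55%) and below them for 2478 (24.4%), and of all tested genes 3562 had a fold change above 0 and 6599 (64.9%) below, with a median of -0.10 on the log2 scale. The split between higher and lower calls depended on the scaling: it was 359 to 250 with median-of-ratios scaling, where that median was -0.00072, and 308 to 310 with quantile normalization. A fit of only the 6 young and treated libraries called 1282 genes, 697 of the 699 among them. Without young replicate 1, 2 or 3 the count was 218, 381 or 257, and without treated replicate 1, 2 or 3 it was 475, 153 or 252. For each gene list below, the numbers in brackets are the lowest and highest counts of called members over these 6 fits. Each list stands beside the shares of all tested genes: 2.59% called higher, 4.29% called lower and 64.9% below 0. The lists and their members were chosen with earlier results of these data known, and their counts are descriptions, with no test of a list.

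**Figure D1:**
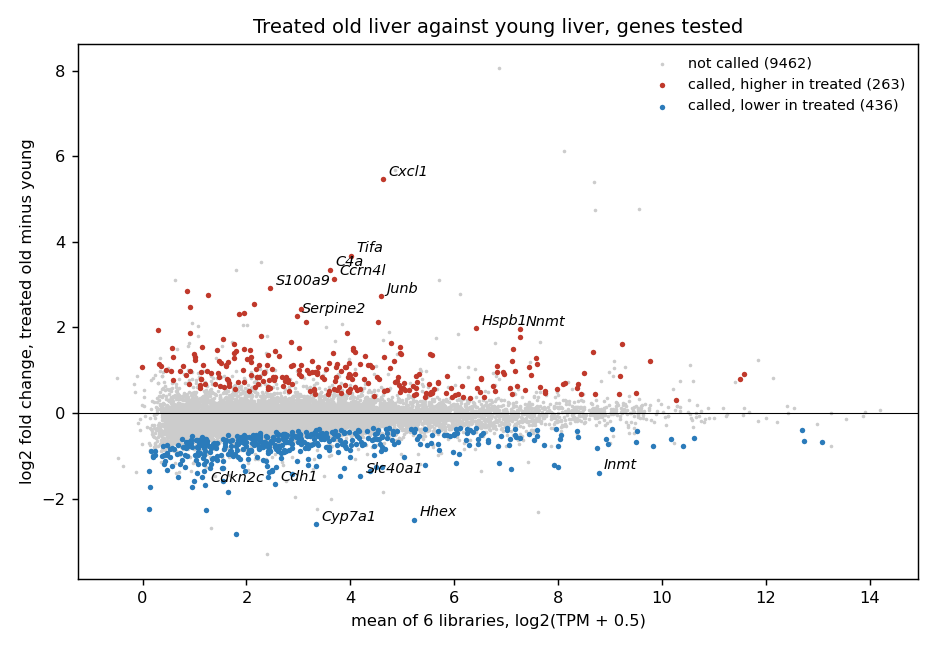
Each point is 1 of the 10161 tested genes, with the mean log2(TPM + 0.5) of the 6 young and treated libraries on the x axis and the log2 fold change, treated old minus young, on the y axis. The 263 genes called higher (red) reach 5.47 for Cxcl1, and the 436 called lower (blue) lie mostly between 0 and -1.

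The largest called rise belonged to Cxcl1, a chemokine that draws neutrophils, at chr5:90891245-90893121 (RefSeq, GRCm38.p6, as all positions below). It read 3.6, 3.71 and 2.47 TPM in young and 181, 169.9 and 143 TPM in treated livers, in the order of replicates 1, 2 and 3 here and below. No treated library came near a young one, and the fold change was 5.47 ± 0.42 on the log2 scale (adjusted p = 0.00109). Untreated old livers lay between the groups at 28.1, 13.2 and 7.03 TPM. Tifa, an adaptor protein upstream of NF-kB (chr3:127788875-127798394), had 3.8, 4.45 and 3.8 TPM in young and 47.7, 86.6 and 44.4 TPM in treated livers (3.67 ± 0.62, adjusted p = 0.0195). Ccrn4l, the gene also called Nocturnin, read 3.16, 2.66 and 6.68 TPM in young and 32.7, 41.5 and 39.6 TPM in treated livers (3.13 ± 0.35, adjusted p = 0.00329). Junb, an AP-1 transcription factor subunit (chr8:84976909-84978748), was nearly the same in the 3 treated livers, with 12.8, 9.81 and 5.41 TPM in young and 63.1, 61.4 and 60.2 TPM in treated livers (2.73 ± 0.32, adjusted p = 0.00419). Serpine2, a secreted inhibitor of serine proteases, rose from 3.09 ± 0.441 to 16.8 ± 2.9 TPM (means ± SD of 3 libraries per group, as for all such pairs), a fold change of 2.27 ± 0.17 (adjusted p = 0.00024). It was at 15.8, 19 and 12.9 TPM in untreated old livers, close to the treated level. Under the same naming limits, the other large rises were those of the complement gene C4a (3.35), the phospholipid flippase gene Atp11a (2.76), the calprotectin genes S100a9 (2.92) and S100a8 (2.56), Tacc2 (2.44), the ferritin receptor gene Scara5 (2.31), the signalling inhibitor Socs3 (2.12), the small heat shock protein gene Hspb1 (1.98), Nnmt, which methylates nicotinamide (1.95), and the peroxisomal acyltransferase gene Acnat2 (1.87). C4a shares most of its sequence with C4b, so its reads may be split between both. Cxcl1, Ccrn4l, Junb, Serpine2 and Atp11a stayed called without any 1 library, and the other 10 did not (4, 4 and 3 without young and 2, 10 and 4 without treated replicate 1, 2 and 3; adjusted p up to 0.12).

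The deepest called falls were those of Clec2h, Cyp7a1 and Hhex. Clec2h, a C-type lectin gene, read 6.66, 13.5 and 7.31 TPM in young and 0.813, 1.14 and 0.54 TPM in treated livers (-2.82 ± 0.50, adjusted p = 0.0163). Cyp7a1, the rate-limiting enzyme of bile acid synthesis (chr4:6265612-6275632), had 18.1, 16.6 and 47.4 TPM in young and 4.04, 2.73 and 4.15 TPM in treated livers (-2.60 ± 0.44, adjusted p = 0.0155). The young livers were uneven, with replicate 3 above the others, and all 3 treated livers lay below every young one. Hhex, a homeobox gene needed for liver development (chr19:37434841-37440731), read 89.5, 105 and 74.1 TPM in young and 11.4, 14.7 and 21.2 TPM in treated livers (-2.50 ± 0.23, adjusted p = 0.00109). Untreated old livers held 34.9, 47.3 and 31.6 TPM of Hhex, between the groups. Cdh1, the adhesion protein E-cadherin (chr8:106603350-106670247), read 9.15, 9.57 and 11 TPM in young and 3.9, 2.12 and 2.57 TPM in treated livers (-1.66 ± 0.17, adjusted p = 0.00109). Slc40a1, the iron exporter ferroportin, read 29.7, 25.9 and 34.8 TPM in young and 9.77, 11.2 and 10.3 TPM in treated livers (-1.48 ± 0.13, adjusted p = 0.000526), without overlap. The remaining largest falls were those of the interferon-induced GTPase gene Gbp11 (-1.85), Cyp2j9 (-1.50), the steroid dehydrogenase genes Hsd3b2 (-1.48) and Hsd3b5 (-1.30), the cyclic GMP phosphodiesterase gene Pde9a (-1.42), the indole methyltransferase gene Inmt (-1.40), Fgfrl1 (-1.39), the lipogenic factor Srebf1 (-1.36), the pioneer factor Foxa1 (-1.35) and the replication inhibitor Gmnn (-1.33). Of the 15 called genes named, Hhex, Cdh1, Slc40a1, Gbp11, Cyp2j9, Hsd3b2, Hsd3b5, Fgfrl1 and Gmnn stayed called in all 6 fits that left out 1 library, and the other 6 lost the call in some (4, 4 and 4 without young and 3, 6 and 6 without treated replicate 1, 2 and 3; adjusted p up to 0.142). Under other scalings the call ended for Foxa1 with both median-of-ratios scaling and quantile normalization.

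Several chemokine and NF-kB genes were called higher in treated livers. Of 40 members 31 were tested, 21 had a fold change above 0, 9 [3 to 6] were called higher and 0 [0 to 1] lower, with a median fold change of 0.28. NF-kB is held in the cytoplasm by inhibitor proteins until a signal releases it. Its subunit gene Rela rose from 15.5 ± 0.627 to 25.5 ± 2.06 TPM (0.70, adjusted p = 0.00713), and Nfkb2, which encodes the precursor of another subunit, rose from 2.11 ± 0.316 to 5.78 ± 0.804 TPM (1.27, adjusted p = 0.00957). Nfkbiz, a nuclear cofactor, rose from 1.41 ± 0.201 to 3.85 ± 1.04 TPM (adjusted p = 0.00638). Cxcl1 and Tifa are described above, and the other called members are named here after their values were seen. They were Relb (0.88), the monocyte chemokine gene Ccl2 (1.88), the adhesion molecule gene Icam1 (1.44) and the interferon regulatory factor Irf1 (0.81). Icam1 read 3.2, 2.63 and 3.36 TPM in young and 8.79, 10.2 and 8.45 TPM in treated livers. Irf1 read 12.2, 13.1 and 10.3 TPM in young and 21.2, 20.7 and 21.3 TPM in treated livers. Every treated liver lay above every young one for both. Leaving out 1 library at a time kept the calls of Rela and Nfkbiz and ended those of the other 5 in at least 1 fit (3, 3 and 3 without young and 3, 5 and 3 without treated replicate 1, 2 and 3; adjusted p up to 0.134).

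The sequence before the start of Cxcl1 is shown because that gene changed most among those called. A kappa-B-like motif, GGGNNTTTCC read on both strands, matched 2 places in the 250 bases before its start site, the nearer to the left end as its reverse complement. They are in capitals in the run below, which is on the plus strand of RefSeq GRCm38.p6, the same build as mm10, at chr5:90890995-90891244.
Cxcl1: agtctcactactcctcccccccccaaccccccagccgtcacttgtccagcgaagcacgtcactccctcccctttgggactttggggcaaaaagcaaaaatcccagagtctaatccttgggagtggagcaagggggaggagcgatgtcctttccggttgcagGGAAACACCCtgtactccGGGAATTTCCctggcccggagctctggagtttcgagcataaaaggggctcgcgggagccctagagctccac
Of the 23 tested members of the list with a promoter in the RefSeq table, 4 held this motif, and 2 of the 6 called ones (Cxcl1 and Nfkb2) did. Of all 27025 genes in the table, 1.65% did. The motif was chosen after others had been searched, and a match is a description of the letters, not of binding.

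Signalling by interleukin-6 runs through gp130-type receptors to STAT3, which induces its own inhibitor SOCS3. Of 15 tested members of this pathway 3 [1 to 2] were called higher and 1 [0 to 1] lower, and no direction of the list as a whole is given, since its median of -0.09 changed sign with scaling. Stat3 read 16.4, 14.8 and 15.3 TPM in young and 38.6, 38.9 and 40.3 TPM in treated livers (1.31 ± 0.16, adjusted p = 0.00215), and the 3 treated livers were within a narrow range well above the young ones. Socs3 read 4.44, 4.91 and 2.41 TPM in young and 18.6, 20.8 and 15.2 TPM in treated livers (2.12 ± 0.36, adjusted p = 0.0128). Bcl3, a nuclear NF-kB cofactor, rose from 15.1 ± 0.958 to 48 ± 5.92 TPM (1.63, adjusted p = 0.031). Lifr, which binds the cytokine LIF, fell from 101 ± 12 to 59.3 ± 4.95 TPM (-0.75, adjusted p = 0.0101). Whichever 1 of the 6 libraries was left out, Stat3 stayed called; the other 3 lost the call in at least 1 fit (1, 1 and 1 without young and 1, 3 and 1 without treated replicate 1, 2 and 3), with adjusted p up to 0.112.

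Most acute phase genes lay above 0, and a smaller part of them was called. Of 29 tested members 28 had a fold change above 0, and the median was 1.12. All 3 treated libraries lay above all 3 young ones for 28 members, beside 9.55% of all tested genes. Called higher were 6 [0 to 4] and lower 0 [0], beside 2.59% and 4.29% of all tested genes. Saa4, an apolipoprotein of high-density lipoprotein, read 70.3, 93.8 and 85.5 TPM in young and 258, 316 and 278 TPM in treated livers (1.77 ± 0.33, adjusted p = 0.0182). Lbp, which binds bacterial lipopolysaccharide, read 29.9, 31.5 and 25.9 TPM in young and 66.4, 88.8 and 72.9 TPM in treated livers (1.36 ± 0.25, adjusted p = 0.0147). Crp, the C-reactive protein gene, rose from 216 ± 26.8 to 346 ± 51.3 TPM (adjusted p = 0.0151). Hamp, the iron hormone hepcidin, rose from 2222 ± 194 to 4201 ± 440.4 TPM (adjusted p = 0.0317). Fgg, a chain of fibrinogen, and Serpina3m were the other called members, named after their values were seen, with fold changes of 0.79 and 0.97. Larger differences stood in genes that varied too much to pass. Saa1, an inducible serum amyloid also picked after its values were seen, read 38.3, 1482 and 52.3 TPM in young and 3099, 7204 and 2729.7 TPM in treated livers (adjusted p = 0.206). Its young replicate 2 lay far above the other young livers, and untreated old livers spread over 6008, 222 and 123 TPM. The fit of 6 libraries called 19 members higher and 0 lower. No call among the 6 named genes held in every fit that left out 1 library: 6, 2 and 6 without young and 3, 6 and 6 without treated replicate 1, 2 and 3 were lost, with adjusted p up to 0.142. Scaling mattered too: no longer called were Hamp, Fgg and Serpina3m with quantile normalization.

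Some defining markers of neutrophils were also called higher. S100a9, a calprotectin subunit, read 2.02, 1.62 and 1.0 TPM in young and 10.1, 18 and 17.1 TPM in treated livers (adjusted p = 0.0102). Its partner S100a8 read 1.23, 1.35 and 1.4 TPM in young and 9.49, 10.8 and 10.5 TPM in treated livers (adjusted p = 0.0099). Retnlg, a resistin-like gene of neutrophils, read 0.178, 0.576 and 0.204 TPM in young and 4.19, 4.57 and 3.26 TPM in treated livers (2.48 ± 0.29, adjusted p = 0.00182). Of 15 listed neutrophil markers 4 were tested and 3 [1 to 3] called higher, beside 2.59% of all tested genes. Retnlg was below 1 TPM in every young library, so it was tested only through libraries of old mice. The other markers were not listed or did not reach the level for testing, among them Camp, Ltf, Ngp and Elane. Lcn2, the lipocalin that withholds bacterial iron and that hepatocytes also make, read 1.04, 19.5 and 1.66 TPM in young and 146, 504 and 124 TPM in treated livers (adjusted p = 0.115), and 481, 24.1 and 7.75 TPM in untreated old livers. Mpo, the myeloperoxidase of neutrophil granules, was listed at 0 in all 6 young and treated libraries. The summed neutrophil list lay between 5.164 and 23.77 TPM in young and between 157.4 and 539.9 TPM in treated livers. Most of the treated sums was Lcn2, and without it the list summed to between 3.506 and 4.488 TPM in young and between 25.44 and 36.05 TPM in treated livers. The part of neutrophils in the chemokine and acute phase results was not tested. Of the 3 called genes named, Retnlg stayed called in all 6 fits that left out 1 library, and the other 2 lost the call in some (0, 0 and 0 without young and 0, 2 and 0 without treated replicate 1, 2 and 3; adjusted p up to 0.0519).

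**Figure D2:**
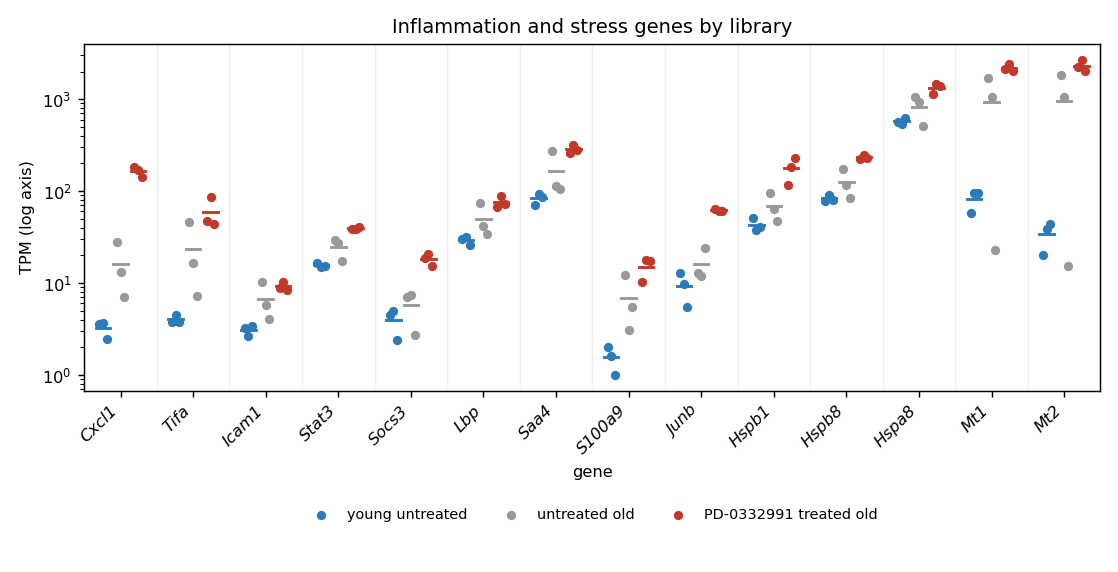
TPM on a log axis for 14 genes of inflammation, stress and metal binding, with 1 point per library and a bar at the mean of each group of 3: young untreated (blue), untreated old (grey) and PD-0332991 treated old (red). The treated points lie above the young points for every gene shown, and the grey points of Mt1 and Mt2 spread from below the young to near the treated level.

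Many heat shock genes were also called higher. These chaperones refold damaged proteins and are induced by heat shock factors. Of 21 tested members 18 had a fold change above 0, 10 [1 to 8] were called higher and 1 [0] lower, with a median of 0.66. With no filter on low values 5 were called higher. Hspb1, a small heat shock protein, read 50.8, 37.6 and 41 TPM in young and 116, 184 and 232 TPM in treated livers (1.98 ± 0.30, adjusted p = 0.00937). Hspb8, another small heat shock protein (78.9, 90.6 and 80.6 TPM in young and 224, 247 and 232 TPM in treated livers), had a fold change of 1.49 ± 0.21 (adjusted p = 0.00539). The constitutive chaperone gene Hspa8 rose from 574 ± 43.9 to 1337 ± 183 TPM (1.21, adjusted p = 0.0185), and the mitochondrial co-chaperonin gene Hspe1 rose from 209 ± 15.7 to 309 ± 46.7 TPM (0.55, adjusted p = 0.0202). Also called higher, and named after their values were seen, were the co-chaperones Bag3 (1.53), Ahsa1 (0.49) and Dnaja1 (0.86), the HSP90 genes Hsp90aa1 (0.99) and Hsp90ab1 (0.68), and Hspa4l (0.78). The called fall was that of Cirbp, an RNA-binding protein induced by cold, also named after its values were seen, with 15.7, 13.4 and 11 TPM in young and 5.72, 5.13 and 5.57 TPM in treated livers (-1.20, adjusted p = 0.0317). Leaving out 1 library at a time kept the calls of Hspb8 and ended those of the other 10 in at least 1 fit (9, 9 and 9 without young and 3, 10 and 9 without treated replicate 1, 2 and 3; adjusted p up to 0.152). The call was also lost for Hspa8, Ahsa1 and Hsp90aa1 with quantile normalization.

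Hspb1 is shown as the called heat shock gene of largest rise. A heat shock motif, GAANNTTC read on both strands, matched 2 places in the 250 bases before its start site. They are in capitals in the run on the plus strand of the same build at chr5:135887669-135887918.
Hspb1: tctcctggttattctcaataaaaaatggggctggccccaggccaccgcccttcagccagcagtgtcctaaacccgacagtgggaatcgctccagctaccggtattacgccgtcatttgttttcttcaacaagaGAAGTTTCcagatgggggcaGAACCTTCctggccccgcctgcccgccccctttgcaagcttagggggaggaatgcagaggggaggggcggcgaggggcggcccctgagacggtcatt
This motif stood in 5 of the 14 tested members that have a promoter in the table and in 3 of the 8 called ones (Hspb1, Hspe1 and Dnaja1), against 7.73% of all genes. It too was chosen after other motifs had been searched.

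Genes of the endoplasmic reticulum stress response lay above 0 in 28 of 30 tested members, with a median of 0.60, and 4 [0 to 2] were called higher and 1 [0] lower. Dnajb9, a chaperone of the reticulum lumen, rose from 9.98 ± 1.97 to 28.6 ± 11.3 TPM (1.42, adjusted p = 0.0163). Edem1, which marks misfolded glycoproteins for disposal, rose from 25.3 ± 2.17 to 41.6 ± 8.05 TPM (adjusted p = 0.029), and Eif2ak3, the stress sensor kinase PERK, rose from 1.9 ± 0.143 to 3.15 ± 0.427 TPM (adjusted p = 0.0354). The secreted stress factor Manf, named after its values were seen, had a fold change of 1.10. Atf4, the transcription factor downstream of PERK, fell from 85.3 ± 5.69 to 66 ± 4.84 TPM (-0.37, adjusted p = 0.0453). Hspa5, the main chaperone of the lumen, read 487, 366 and 302 TPM in young and 639.8, 1083 and 679 TPM in treated livers and did not pass (adjusted p = 0.0833). Its treated livers all lay above the young ones, and in the fit of only the 6 young and treated libraries its adjusted p was 0.0391. A stress element of this response, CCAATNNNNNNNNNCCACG on either strand, stood before the start of 8 of 26 tested members with a promoter in the RefSeq table, among them Hspa5 but none of the 4 called ones, against 0.13% of all genes. In the 6-library fit 13 members were called higher and 1 lower. Each of the 5 called genes named lost its call in at least 1 fit without a library, 5, 5 and 4 without young and 3, 4 and 4 without treated replicate 1, 2 and 3, with adjusted p up to 0.15. Under other scalings the call ended for Atf4 with both median-of-ratios scaling and quantile normalization, and Manf with quantile normalization.

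Immediate early genes respond to growth factors and stress within minutes. Of 19 tested members 5 [3 to 4] were called higher and 1 [1 to 2] lower, with a median of 0.56. Beside Junb these included Fosl2, another AP-1 subunit (from 1.21 ± 0.326 to 2.83 ± 0.0563 TPM, adjusted p = 0.00725), Dusp6, a phosphatase that switches off ERK (from 6.47 ± 1.48 to 12.8 ± 0.694 TPM, adjusted p = 0.0129), the antiproliferative gene Btg2 (from 2.25 ± 0.724 to 6.27 ± 1.31 TPM, adjusted p = 0.013) and Jund, named after its values were seen (0.58). Klf2, a transcription factor prominent in endothelium, fell from 6.93 ± 0.661 to 3.5 ± 0.149 TPM (-0.89, adjusted p = 0.0037). Fosl2 and Klf2 stayed called without any 1 library, and the other 3 did not (2, 1 and 2 without young and 1, 1 and 2 without treated replicate 1, 2 and 3; adjusted p up to 0.105).

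The metallothionein genes Mt1 and Mt2, whose products bind zinc and copper, showed wide gaps between the groups without passing the test. Mt2 read 20.4, 38.3 and 44.2 TPM in young and 2229, 2690.0 and 2046 TPM in treated livers and 1835, 1044 and 15.2 TPM in untreated old livers. Mt1 read 57.6, 95.2 and 94.6 TPM in young and 2153, 2409 and 2005 TPM in treated livers and 1706, 1057 and 22.9 TPM in untreated old livers. Treated livers were uniformly high and young livers uniformly low, while untreated old replicates 1 and 2 were high and replicate 3 was low. The fold changes were 6.12 ± 1.77 and 4.75 ± 1.59 with adjusted p of 0.0994 and 0.134, and the fit of only the 6 young and treated libraries gave 0.000186 and 3.47e-06. Among zinc transporters, Slc39a4, which brings zinc into cells, fell from 35.2 ± 9.62 to 14.1 ± 0.424 TPM (-1.25, adjusted p = 0.016), and Slc30a5, which moves zinc into the secretory pathway, rose from 10.1 ± 1.14 to 23.1 ± 3.01 TPM (1.16, adjusted p = 0.0232). Of 23 tested iron genes 3 [1 to 2] were called higher and 1 [1] lower, the latter ferroportin, described above. Higher were Hamp, Hmox1, the heme-degrading enzyme (from 7.68 ± 2.13 to 17.5 ± 1.46 TPM, adjusted p = 0.0116), and Id1, a target of BMP signalling (from 6.67 ± 0.925 to 14.8 ± 3.28 TPM, adjusted p = 0.0155). Each of the 4 called genes named lost its call in at least 1 fit without a library, 3, 1 and 2 without young and 0, 3 and 3 without treated replicate 1, 2 and 3, with adjusted p up to 0.0991.

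Interferon response genes lay mostly below 0. Of 36 tested members 30 lay below 0, beside 64.9% of all tested genes, and the median was -0.34. Called lower were 7 [2 to 6] and higher 3 [1 to 2], beside 4.29% and 2.59% of all tested genes. The protease gene Usp18, which limits interferon signalling, fell from 4.04 ± 0.371 to 1.87 ± 0.297 TPM (-0.95, adjusted p = 0.0102), and Ifi27l2a fell from 14.6 ± 2.31 to 7.06 ± 1.58 TPM (-1.01, adjusted p = 0.00627). Its near neighbour Ifi27l2b rose from 2.19 ± 0.697 to 8.73 ± 2.06 TPM (1.79, adjusted p = 0.00594). Named after their values were seen, the other called falls were those of the GTPase genes Gbp6 (-0.76), Gbp10 (-1.18) and Igtp (-0.46) and the nucleotide kinase gene Cmpk2 (-0.84), and the other called rises those of Isg20 (0.63) and Mx2 (0.70). Of the 7 tested class II antigen presentation genes all 7 lay below 0, with a median of -0.52 and none called. H2-Aa, a class II chain, read 26.1, 23.7 and 33.7 TPM in young and 19.7, 11.4 and 17.4 TPM in treated livers (adjusted p = 0.0944). In the fit of only the 6 young and treated libraries its adjusted p was 0.0415, and 3 class II genes were called lower. Of class I genes H2-T22 alone was called, falling from 17.8 ± 1.02 to 10.7 ± 2.16 TPM (adjusted p = 0.0107). Leaving out 1 library at a time kept the calls of Ifi27l2a and Ifi27l2b and ended those of the other 8 in at least 1 fit (4, 6 and 5 without young and 3, 8 and 6 without treated replicate 1, 2 and 3; adjusted p up to 0.167). Scaling mattered too: no longer called were Gbp6 with both median-of-ratios scaling and quantile normalization, and Igtp with median-of-ratios scaling, and Gbp10 with quantile normalization.

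Markers of Kupffer cells, the resident macrophages of the liver, were lower in part. Of 14 tested markers 5 [0 to 5] were called lower and 0 [0] higher, with a median of -0.57. With median-of-ratios scaling or quantile normalization 2 were called lower. Clec4f, a lectin restricted to Kupffer cells, read 23.3, 34 and 34.6 TPM in young and 17.6, 18.6 and 18.1 TPM in treated livers (-0.72, adjusted p = 0.0183). Csf1r, the receptor macrophages need to survive, fell from 7.58 ± 2.23 to 3.96 ± 0.664 TPM (-0.83, adjusted p = 0.0231), the complement receptor gene Vsig4 fell from 10.4 ± 2.25 to 6.02 ± 1.23 TPM (adjusted p = 0.0325) and the lysosomal gene Cd68 fell from 4.01 ± 0.46 to 2.56 ± 0.225 TPM (adjusted p = 0.0334). Timd4, a receptor for dying cells, was also lower, named after its values were seen (-0.93). The abundant macrophage gene Lyz2 was at 31.1, 31.4 and 36.1 TPM in young and 33.8, 35.6 and 38.5 TPM in treated livers (adjusted p = 0.525), with overlap. The summed list lay between 173.9 and 260.5 TPM in young and between 168.4 and 171.9 TPM in treated livers, and its part in the interferon and class II results was not tested. Each of the 5 called genes named lost its call in at least 1 fit without a library, 2, 5 and 5 without young and 4, 4 and 5 without treated replicate 1, 2 and 3, with adjusted p up to 0.133. The call was also lost for Vsig4, Cd68 and Timd4 with both median-of-ratios scaling and quantile normalization.

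Genes of fat handling moved in both directions. Plin2, a coat protein of lipid droplets, read 314, 284 and 314 TPM in young and 491, 386 and 374 TPM in treated livers and did not pass (0.45 ± 0.15, adjusted p = 0.0896), although the groups did not overlap. It was at 198, 174 and 256 TPM in untreated old livers, and the fit of only the 6 young and treated libraries gave an adjusted p of 0.0282. Angptl4, a secreted inhibitor of lipoprotein lipase, rose from 70 ± 16.8 to 121 ± 13.1 TPM (0.81, adjusted p = 0.0266), and Cd36, which takes up fatty acids, rose from 6.96 ± 1.13 to 14.2 ± 3.31 TPM (0.96, adjusted p = 0.015). The lipase gene Ces1d fell from 371 ± 58.5 to 160.0 ± 34.6 TPM (-1.22, adjusted p = 0.0316), and Lpl, lipoprotein lipase itself, fell from 3.45 ± 0.524 to 1.39 ± 0.471 TPM (-1.09, adjusted p = 0.0225). Summed adipocyte markers lay between 13.43 and 24.47 TPM in young and between 6.567 and 13.52 TPM in treated livers. The part of adipocytes in the fall of Lpl was not tested. In triglyceride synthesis Mogat1, an acyltransferase, rose from 0.532 ± 0.0953 to 1.56 ± 0.255 TPM (adjusted p = 0.0317) and Gpd1, which supplies glycerol phosphate, fell from 166 ± 18.2 to 109 ± 12.6 TPM (adjusted p = 0.0324). Dgat2, which makes the last step to triglyceride, read 171, 169.7 and 143 TPM in young and 149, 126 and 137 TPM in treated livers (adjusted p = 0.186), and its companion Dgat1 was at 14.6, 14.4 and 12.6 TPM in young and 14, 13.9 and 12.7 TPM in treated livers (adjusted p = 0.886). No call among the 6 named genes held in every fit that left out 1 library: 6, 4 and 4 without young and 2, 6 and 6 without treated replicate 1, 2 and 3 were lost, with adjusted p up to 0.13. Under other scalings the call ended for Gpd1 with median-of-ratios scaling.

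Of 39 tested targets of PPAR-alpha and genes of fatty acid oxidation 30 lay below 0, beside 64.9% of all tested genes, with a median of -0.22. Called lower were 5 [1 to 3] and higher 2 [0 to 2], beside 4.29% and 2.59% of all tested genes. With median-of-ratios scaling 1 was called lower and 2 higher, so the balance between falls and rises depended on scaling. The peroxisomal enzyme gene Ehhadh fell from 113 ± 19.1 to 67.7 ± 2.21 TPM (-0.72, adjusted p = 0.00959), and Acsl1, which activates fatty acids, fell from 207 ± 29.6 to 146 ± 9.33 TPM (-0.50, adjusted p = 0.0352). Named after their values were seen, the others included the mitochondrial oxidation gene Hadha (-0.35) and the ketone body gene Bdh1 (-0.51). In de novo lipogenesis 2 [0 to 1] of 18 tested members were called lower and 0 [0] higher. Of the 18, 10 lay above 0 and 8 below, with a median of 0.04, so the list as a whole was not lower. Srebf1, the factor that drives the pathway, read 37, 35.3 and 27.2 TPM in young and 16.1, 9.26 and 13.1 TPM in treated livers (-1.36, adjusted p = 0.0377), and Pklr, the liver pyruvate kinase, read 71.1, 45.4 and 85.6 TPM in young and 32.5, 23.6 and 28.1 TPM in treated livers (-1.21, adjusted p = 0.0099). Neither overlapped between the groups. Of the 6 called genes named, Ehhadh stayed called in all 6 fits that left out 1 library, and the other 5 lost the call in some (4, 3 and 4 without young and 4, 5 and 4 without treated replicate 1, 2 and 3; adjusted p up to 0.149). Scaling mattered too: no longer called were Acsl1 with both median-of-ratios scaling and quantile normalization, and Hadha and Bdh1 with median-of-ratios scaling.

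Sterol genes changed at several steps. In cholesterol synthesis 2 [0 to 2] of 24 tested members were called higher and 0 [0 to 1] lower. Sqle, squalene epoxidase, read 21.9, 21.8 and 22.4 TPM in young and 43.7, 38.7 and 29.2 TPM in treated livers (0.72, adjusted p = 0.0107). Fdps, farnesyl diphosphate synthase, read 239, 252 and 273 TPM in young and 458, 319.6 and 359 TPM in treated livers and missed the threshold (adjusted p = 0.0512). With only the 6 young and treated libraries in the fit, its adjusted p was 0.0166. Both subunits of the transporter that exports sterols into bile fell: Abcg5 read 32.6, 33.5 and 25 TPM in young and 14, 15.3 and 15.9 TPM in treated livers (-0.98, adjusted p = 0.00424) and Abcg8 fell from 19.1 ± 3.61 to 10.9 ± 1.02 TPM (-0.78, adjusted p = 0.0128). Of 20 tested bile acid genes 2 [0 to 1] were called higher and 2 [0 to 3] lower. Beside Cyp7a1, of the classical route, Hsd3b7, which acts next on its product, fell from 319 ± 24 to 225 ± 29.8 TPM (-0.51, adjusted p = 0.0295). Cyp7b1, of the alternative route, rose from 125 ± 46 to 253 ± 20.3 TPM (1.07, adjusted p = 0.019). Nr0b2, the nuclear receptor SHP that represses Cyp7a1, read 19.4, 16.5 and 18.5 TPM in young and 48.6, 41.2 and 39.8 TPM in treated livers (1.23, adjusted p = 0.0475), and 35.4, 27.2 and 73.4 TPM in untreated old livers. Apoc2, the cofactor of lipoprotein lipase, rose from 297 ± 29.7 to 406 ± 18.9 TPM (adjusted p = 0.0285). Leaving out 1 library at a time kept the calls of Abcg5 and ended those of the other 6 in at least 1 fit (5, 3 and 3 without young and 2, 6 and 4 without treated replicate 1, 2 and 3; adjusted p up to 0.137). The call was also lost for Hsd3b7 with median-of-ratios scaling, and Apoc2 with quantile normalization.

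**Figure D3:**
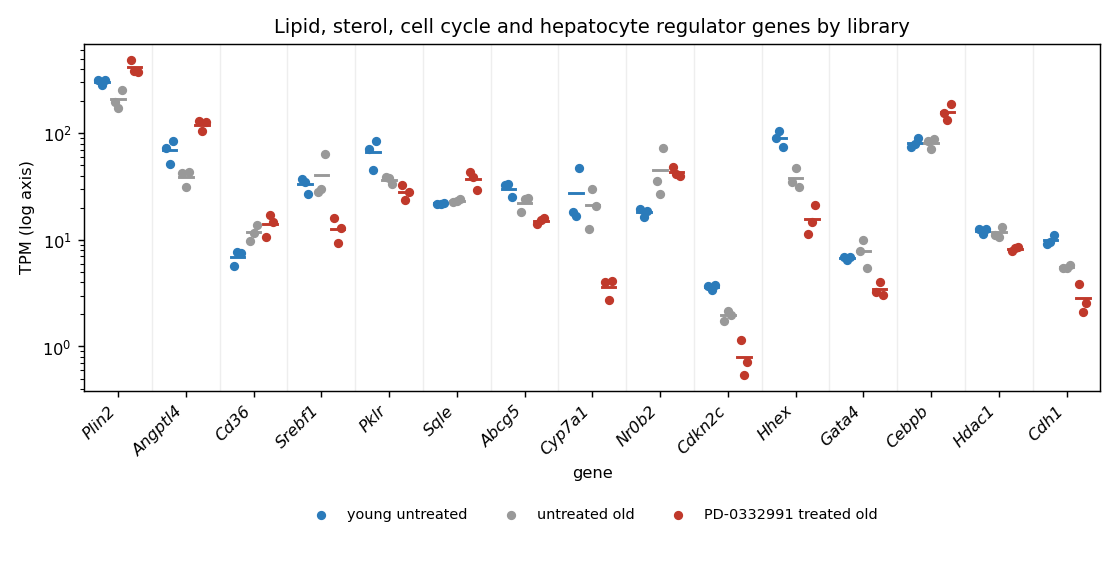
TPM on a log axis for 15 genes of lipid, sterol, cell cycle and liver regulation, with 1 point per library and a bar at the mean of each group of 3: young untreated (blue), untreated old (grey) and PD-0332991 treated old (red). Hhex, Cdkn2c and Cdh1 step down from young through untreated old to treated livers, while Cebpb and Sqle stand apart in the treated libraries.

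Enzymes that process drugs and hormones differed gene by gene. Of 30 tested cytochrome P450 genes of families 1, 2 and 3, 2 [2 to 3] were called higher and 3 [1 to 2] lower. Cyp2c37 rose from 122 ± 19.4 to 299.9 ± 57.3 TPM (1.29, adjusted p = 0.00225) and Cyp3a13 rose from 39.6 ± 3.25 to 65.7 ± 5.92 TPM (adjusted p = 0.00801), while Cyp2d9 fell from 909 ± 70.7 to 570.2 ± 30.4 TPM (adjusted p = 0.00419) and Cyp2c40 fell from 9.36 ± 4.42 to 3.4 ± 0.891 TPM (adjusted p = 0.0318). Por, which passes electrons to these enzymes, rose from 56.4 ± 3.77 to 88.3 ± 9.78 TPM (adjusted p = 0.012). In phase II conjugation 5 [2 to 3] of 40 tested members were called higher and 6 [1 to 5] lower, and 6 higher and 3 lower with median-of-ratios scaling. The methyltransferase gene Nnmt read 53.6, 105 and 84.9 TPM in young and 249, 341 and 331 TPM in treated livers (adjusted p = 0.00949), and the sulfotransferase gene Sult1a1 rose from 130.5 ± 4.05 to 242 ± 25.2 TPM (adjusted p = 0.00419). The glucuronosyltransferase gene Ugt2b35 fell from 86.3 ± 16.1 to 45.2 ± 1.59 TPM (adjusted p = 0.00713). The glutathione transferase gene Gstp1 fell from 1777 ± 306 to 1040.2 ± 172 TPM (adjusted p = 0.0103). Gstp2, of the same family and named after its values were seen, was among the 5 called higher, so a fall of both together was not seen. Both subunit genes of the first enzyme of glutathione synthesis were called lower, the catalytic subunit gene Gclc falling from 96.3 ± 20.5 to 48.9 ± 2.99 TPM (adjusted p = 0.0177) and the modifier subunit gene Gclm falling from 74.9 ± 5.1 to 57.2 ± 1.87 TPM (adjusted p = 0.0289). Members of the Cyp2c, Ugt2b, Gstp, Hsd3b, Mup, Gbp, Serpina, Saa, Ifi27 and H2 families are similar in sequence, so the split of reads among them is uncertain. Whichever 1 of the 6 libraries was left out, Cyp2c37, Cyp3a13, Cyp2d9, Sult1a1 and Ugt2b35 stayed called. The other 6 called genes given with TPM lost the call in at least 1 fit (2, 1 and 3 without young and 2, 6 and 4 without treated replicate 1, 2 and 3), with adjusted p up to 0.118. Under other scalings the call ended for Gclm with both median-of-ratios scaling and quantile normalization, and Cyp2c40 with quantile normalization.

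Liver genes with higher levels in males depend on the pulses of growth hormone. Of 24 tested members 18 lay below 0, beside 64.9% of all tested genes, with a median of -0.44. Called lower were 5 [2 to 6] and higher 3 [1 to 2], beside 4.29% and 2.59% of all tested genes. Hsd3b5, a marker of the male liver, read 190.4, 225 and 223 TPM in young and 104, 66.5 and 92.5 TPM in treated livers (-1.30, adjusted p = 0.00884). Keg1 fell from 189 ± 18.5 to 125 ± 11.5 TPM (adjusted p = 0.0166). Susd4, a regulator of complement, rose from 3.11 ± 0.573 to 7.32 ± 0.416 TPM (1.13, adjusted p = 0.00222), and Bcl6, a repressor of female-biased genes named after its values were seen, also rose (1.13). Of the growth hormone axis Igfals, which carries IGF1 in blood, fell from 66.7 ± 13.9 to 39.6 ± 4.65 TPM (-0.73, adjusted p = 0.0148). Of 8 tested members of the female-biased list 6 lay below 0, with a median of -0.15, and 1 [0 to 1] was called higher and 0 [0] lower. The called member, the nuclear receptor cofactor gene Trim24, rose from 1.83 ± 0.337 to 6.19 ± 1.97 TPM (1.49, adjusted p = 0.0137). Hsd3b5 and Susd4 stayed called without any 1 library, and the other 4 did not (4, 1 and 2 without young and 1, 4 and 3 without treated replicate 1, 2 and 3; adjusted p up to 0.116).

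Members of the target pathway of the drug that passed were lower, while Cdk4 and cyclin D1 did not pass. Cdk4 read 26, 22.9 and 22.8 TPM in young and 25, 20.6 and 21.5 TPM in treated livers, with overlapping groups (-0.10 ± 0.11, adjusted p = 0.643). Ccnd1, cyclin D1, read 5.53, 3.07 and 5.01 TPM in young and 8.9, 5.09 and 5.48 TPM in treated livers (adjusted p = 0.334), and Cdk6 was below 1 TPM in all 6 libraries, at 0.839, 0.512 and 0.881 TPM in young and 0.52, 0.67 and 0.79 TPM in treated livers, and was not tested. Among 14 tested kinases, cyclins, RB family members and inhibitors, 3 [1 to 2] were called lower and 0 [0] higher, beside 4.29% and 2.59% of all tested genes. Cdkn2c, the CDK4 and CDK6 inhibitor p18, read 3.71, 3.41 and 3.76 TPM in young and 1.15, 0.542 and 0.709 TPM in treated livers (-1.69 ± 0.18, adjusted p = 0.00109), and untreated old livers lay between at 1.75, 2.15 and 1.98 TPM. Cdk2, the kinase of S phase entry, fell from 5.14 ± 0.412 to 3.05 ± 0.564 TPM (-0.68, adjusted p = 0.0214), and Rbl2, the RB relative p130, fell from 4.71 ± 0.303 to 3.12 ± 0.143 TPM (-0.53, adjusted p = 0.0285). Cdkn1a, the inhibitor p21, read 1.2, 1.22 and 2.03 TPM in young and 3.53, 1.41 and 2.43 TPM in treated livers (0.53, adjusted p = 0.48). Cdkn2a, whose products include p16, stayed below 1 TPM and was not tested, at 0.0705, 0 and 0.151 TPM in young and 0.725, 0.302 and 0.684 TPM in treated livers. Of the 3 called genes named, Cdkn2c stayed called in all 6 fits that left out 1 library, and the other 2 lost the call in some (2, 1 and 2 without young and 1, 2 and 2 without treated replicate 1, 2 and 3; adjusted p up to 0.107). Scaling mattered too: no longer called was Rbl2 with both median-of-ratios scaling and quantile normalization.

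Of 42 cell cycle genes and E2F targets, 19 reached the level for testing. Of these 17 lay below 0, beside 64.9% of all tested genes, and the median was -0.48. Called lower were 2 [0] and higher 0 [0], beside 4.29% and 2.59% of all tested genes. Aurka, a mitotic kinase, read 1.35, 1.48 and 1.25 TPM in young and 0.564, 0.264 and 0.549 TPM in treated livers (-0.97, adjusted p = 0.0317). Tk1, the thymidine kinase of S phase, read 22, 20.4 and 20.2 TPM in young and 11.2, 10.3 and 12.3 TPM in treated livers (-0.86, adjusted p = 0.0363). The groups did not overlap for either. Pcna, the sliding clamp of replication, read 18, 16.1 and 19 TPM in young and 16.5, 15.6 and 17.1 TPM in treated livers, with an adjusted p of 0.645. Mki67, a marker of dividing cells, was under the level for testing, at 0.25, 0.221 and 0.25 TPM in young and 0.0821, 0.0432 and 0.0435 TPM in treated livers, with all 3 treated values below all 3 young ones. In the 6-library fit 8 members were called lower and 0 higher. Of 18 tested p53 targets 7 lay below 0, with 0 [0] called lower and 3 [0 to 2] called higher. The called rises were Btg2, the stress gene Gadd45b (from 0.858 ± 0.635 to 2.72 ± 0.708 TPM, adjusted p = 0.0232) and the death receptor gene Fas (from 10.6 ± 0.97 to 16.5 ± 2.93 TPM, adjusted p = 0.035). No call among the 4 named genes held in every fit that left out 1 library: 4, 4 and 3 without young and 3, 4 and 4 without treated replicate 1, 2 and 3 were lost, with adjusted p up to 0.139. The call was also lost for Tk1 with median-of-ratios scaling, and Aurka with quantile normalization.

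Listed liver transcription factors changed in both directions, with 2 [0 to 1] of 28 tested members called higher and 5 [1 to 2] lower. Not all of them are particular to hepatocytes, and the part of other liver cells in these values was not tested. The balance turned with scaling, to 3 higher and 2 lower with median-of-ratios scaling and likewise with quantile normalization. Beside Hhex, the pioneer factor Foxa1 read 9.53, 8.94 and 7.04 TPM in young and 2.74, 2.92 and 3.4 TPM in treated livers (-1.35, adjusted p = 0.0414), and Gata4 read 6.93, 6.5 and 6.9 TPM in young and 3.25, 4.04 and 3.03 TPM in treated livers (-0.89, adjusted p = 0.0184). The nuclear receptor gene Esrra, a regulator of mitochondrial genes, fell from 11.2 ± 1.11 to 7.75 ± 0.347 TPM (adjusted p = 0.0303), and Nr2f2 was also lower, named after its values were seen (-0.69). Prox1, needed for hepatocyte identity, rose from 4.39 ± 0.774 to 8.2 ± 1.32 TPM (0.83, adjusted p = 0.0156), as did Zbtb20, named after its values were seen (0.67). Cebpb, a factor of the acute phase and of regeneration, read 73.8, 78.8 and 90.4 TPM in young and 156, 133 and 187 TPM in treated livers (0.96 ± 0.14, adjusted p = 0.00424), and 84, 71 and 88.6 TPM in untreated old livers. Its partner Cebpa read 155, 182 and 147 TPM in young and 129.8, 132 and 129 TPM in treated livers and did not pass (-0.30, adjusted p = 0.0937). Whichever 1 of the 6 libraries was left out, Cebpb stayed called; the other 6 lost the call in at least 1 fit (6, 5 and 5 without young and 5, 5 and 5 without treated replicate 1, 2 and 3), with adjusted p up to 0.182. Under other scalings the call ended for Foxa1, Esrra and Nr2f2 with both median-of-ratios scaling and quantile normalization.

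Of 37 tested chromatin enzymes 31 were below 0, as were 64.9% of all tested genes, and the median was -0.24. Called lower were 3 [0 to 3] and called higher 1 [1], beside 4.29% and 2.59% of all tested genes. The histone deacetylase gene Hdac1 read 12.6, 11.4 and 12.5 TPM in young and 7.84, 8.35 and 8.54 TPM in treated livers (-0.53, adjusted p = 0.0184). Kat2b, an acetyltransferase, fell from 12.8 ± 1.05 to 8.43 ± 0.613 TPM (adjusted p = 0.0182), and Setdb1, a histone methyltransferase, fell from 5.36 ± 0.619 to 3.46 ± 0.437 TPM (adjusted p = 0.0354). Kdm4a, a demethylase, was the called rise, with 4.99, 4.92 and 4.82 TPM in young and 9.37, 8.71 and 7.27 TPM in treated livers (0.72, adjusted p = 0.00771). Arid1a, a subunit of the SWI/SNF remodeller, fell from 4.14 ± 0.314 to 2.76 ± 0.149 TPM (adjusted p = 0.0369), and the coactivator Ep300 was at 2.08, 1.72 and 2.04 TPM in young and 1.92, 1.8 and 1.77 TPM in treated livers (adjusted p = 0.805). Kdm4a stayed called without any 1 library, and the other 4 did not (4, 1 and 4 without young and 4, 4 and 4 without treated replicate 1, 2 and 3; adjusted p up to 0.13). Scaling mattered too: no longer called were Setdb1 and Arid1a with both median-of-ratios scaling and quantile normalization.

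The clock runs in hepatocytes as a daily cycle of activators and repressors, so the hour of tissue collection, which the labels do not give, can move these genes. Of 13 tested core clock genes 1 [0 to 2] was called higher and 0 [0] lower. Per1, a repressor also induced by stress hormones, read 2.5, 1.99 and 2.17 TPM in young and 3.64, 5.4 and 6.03 TPM in treated livers (1.0, adjusted p = 0.0182). Nr1d1, the repressor REV-ERB alpha, read 28.5, 30.9 and 24.6 TPM in young and 55.3, 59.3 and 58.3 TPM in treated livers, without overlap and without passing (adjusted p = 0.201), and 12.5, 10.6 and 41.4 TPM in untreated old livers. The fit of only the 6 young and treated libraries gave Nr1d1 an adjusted p of 0.00013. Of 11 tested clock output genes 3 [2 to 4] were called higher and 0 [0] lower, while 4 lay below 0. Nfil3, a repressor that opposes the PAR bZIP factors, read 8.45, 9.87 and 9.96 TPM in young and 29.9, 25.4 and 25.8 TPM in treated livers (1.47, adjusted p = 0.00109), beside Ccrn4l and Por. The part of collection time in these values was not tested. Of the 2 called genes named, Nfil3 stayed called in all 6 fits that left out 1 library, and Per1 lost the call in some (without young replicate 1, young replicate 2, young replicate 3, treated replicate 2 and treated replicate 3; adjusted p up to 0.0799).

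Genes that join hepatocytes to each other were lower in part. Of 23 tested members 6 [2 to 6] were called lower and 1 [1] higher, with a median of -0.26. Beside Cdh1, the desmosome genes Dsg2 and Dsp fell from 14.8 ± 1.58 to 8.27 ± 0.735 TPM (-0.80, adjusted p = 0.00696) and from 3.89 ± 0.648 to 1.85 ± 0.218 TPM (-0.89, adjusted p = 0.0102). Named after their values were seen, the tight junction genes Cgn (-0.64) and Cldn1 (-1.02) and the adhesion gene Ceacam1 (-0.62) were also lower. Gjb2, the gap junction protein connexin 26, rose from 68.9 ± 3.08 to 120.4 ± 14.8 TPM (0.79, adjusted p = 0.00419). Of 26 tested collagens, laminins, integrins and matrix genes 5 [2 to 5] were called lower and 0 [0] higher, with a median of -0.30 and 4 above 0. Col3a1, a fibrillar collagen, read 6.56, 4.8 and 4.95 TPM in young and 2.71, 1.69 and 1.68 TPM in treated livers (-1.25, adjusted p = 0.00603), and Col27a1 fell from 7.8 ± 2.21 to 2.96 ± 0.474 TPM (adjusted p = 0.00638). Sparc, a collagen-binding protein, fell from 21.6 ± 1.69 to 14.1 ± 1.01 TPM (adjusted p = 0.0159) and the membrane metalloproteinase gene Mmp15 fell from 11.1 ± 1.15 to 6.61 ± 1.06 TPM (adjusted p = 0.016). The summed markers of stellate cells, which make much of the matrix, lay between 150.8 and 154.8 TPM in young and between 102.5 and 150 TPM in treated livers, with 0 [0] of 13 tested markers called higher and 0 [0] lower. Sinusoidal endothelial markers summed to between 131.5 and 142.6 TPM in young and between 109.6 and 125.5 TPM in treated livers, and cholangiocyte markers to between 22.21 and 25.32 TPM and between 12.94 and 18.58 TPM. Of 18 tested endothelial markers 0 [0] were called higher and 0 [0 to 1] lower. Of 10 cholangiocyte markers 3 were tested, 1 of them above 0, with 0 [0] called higher and 0 [0 to 1] lower. The part of these cells in the junction and matrix results was not tested. Leaving out 1 library at a time kept the calls of Dsg2, Gjb2, Col3a1 and Col27a1 and ended those of the other 6 in at least 1 fit (4, 1 and 4 without young and 0, 6 and 2 without treated replicate 1, 2 and 3; adjusted p up to 0.128). The call was also lost for Cgn with both median-of-ratios scaling and quantile normalization.

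**Figure D4:**
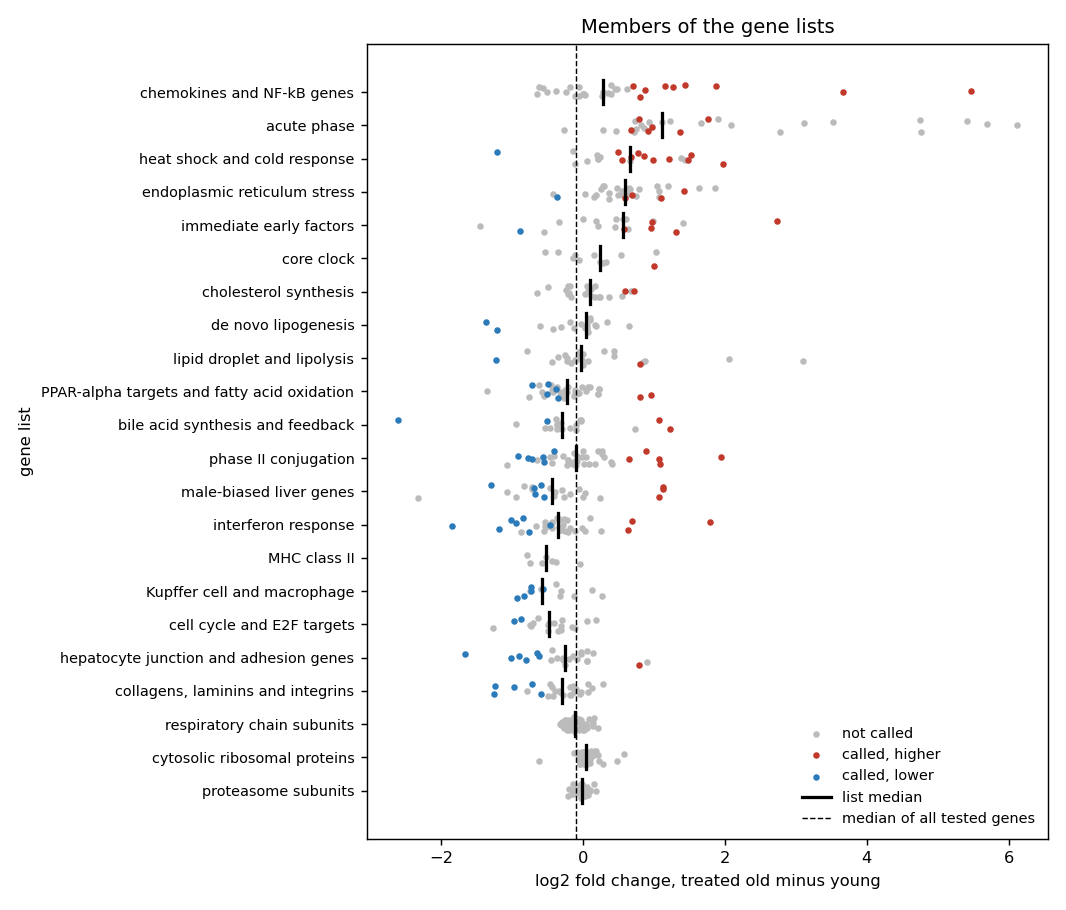
Each point is a tested member of the gene list named on the y axis, at its log2 fold change, treated old minus young, with called members in red (higher) or blue (lower), the median of the list as a black bar and the median of all tested genes (-0.10) as a dashed line. Acute phase members lie mostly to the right with 6 of 29 called, and the subunits of the respiratory chain, ribosome and proteasome lie close to 0 with none called.

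Among genes of sugar and amino acid metabolism, Irs2, an adaptor of the insulin receptor, rose from 0.775 ± 0.395 to 2.73 ± 0.561 TPM (1.37, adjusted p = 0.00809), and Pik3r1, the regulatory subunit of PI3 kinase, fell from 7.66 ± 0.484 to 4.24 ± 0.138 TPM (-0.78, adjusted p = 0.0119). Slc2a2, the glucose transporter of hepatocytes, fell from 58.4 ± 13.1 to 33.9 ± 3.78 TPM (adjusted p = 0.0317), and the glycogen phosphorylase gene Pygl fell from 143 ± 17.3 to 99.1 ± 13.3 TPM (adjusted p = 0.0279). Oat, ornithine aminotransferase, rose from 263 ± 41.7 to 501 ± 44.7 TPM (0.94, adjusted p = 0.00539), while Tdo2, which opens tryptophan breakdown, fell from 598 ± 45.1 to 396 ± 59.2 TPM (adjusted p = 0.0368). Of 44 tested genes of the urea cycle and amino acid breakdown 4 [1 to 3] were called higher and 2 [0 to 3] lower, against 7 higher and 0 lower with median-of-ratios scaling and 4 higher and 4 lower with quantile normalization. Of 26 tested carriers of the mitochondrial inner membrane 17 lay below 0, beside 64.9% of all tested genes, with a median of -0.16. Called higher were 3 [2 to 3] and lower 0 [0], beside 2.59% and 4.29% of all tested genes. The called carriers were Slc25a51, which imports NAD (from 13.4 ± 2.33 to 29.5 ± 3.37 TPM, adjusted p = 0.0043), Slc25a34 (from 1.7 ± 0.37 to 4.83 ± 0.759 TPM, adjusted p = 0.00884) and the liver-enriched Slc25a47 (from 221 ± 40.8 to 358 ± 33 TPM, adjusted p = 0.0225). At the cell surface Slc3a1, a subunit of the cystine transporter, rose from 19 ± 1.89 to 50.1 ± 1.17 TPM (1.38, adjusted p = 0.00142), and the taurine transporter gene Slc6a6 fell from 11.2 ± 1.63 to 6.13 ± 0.824 TPM (-0.82, adjusted p = 0.0158). Receptors of hepatocytes had 3 [0 to 2] of 23 tested members called lower and 0 [0] higher, among them the vasopressin receptor gene Avpr1a (from 10.7 ± 1.2 to 5.59 ± 1.27 TPM, adjusted p = 0.016) and Fgfr3 (from 8.44 ± 1.04 to 4.43 ± 0.246 TPM, adjusted p = 0.0238). Of 37 tested autophagy and lysosome genes 1 [0 to 1] was called higher and 1 [0 to 1] lower, beside 2.59% and 4.29% of all tested genes. The median of this list was -0.08. Its called rise was Atg14, which starts autophagosome formation (from 5.29 ± 0.132 to 8.8 ± 0.818 TPM, adjusted p = 0.00949). Whichever 1 of the 6 libraries was left out, Irs2, Oat, Slc25a51, Slc25a34 and Slc3a1 stayed called; the other 9 lost the call in at least 1 fit (7, 4 and 6 without young and 3, 9 and 4 without treated replicate 1, 2 and 3), with adjusted p up to 0.142. Under other scalings the call ended for Pygl and Tdo2 with median-of-ratios scaling.

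Large housekeeping complexes showed no called member in the fit described. None of 51 tested respiratory chain subunits, 59 cytosolic ribosomal proteins or 34 proteasome subunits passed, in this fit or in that of the 6 libraries alone, and with median-of-ratios scaling Rplp2, a ribosomal protein gene named after its values were seen, was called higher. Their fold changes ran from -0.33 to 0.22, from -0.61 to 0.58 and from -0.20 to 0.18 on the log2 scale.

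The same fit holds the comparisons of untreated old with young livers (112 genes called, 1.1%) and of treated with untreated old livers (147 genes, 1.45%), which share libraries with the one described, so their values are set side by side without a test between them. Hhex had a fold change of -1.23 ± 0.23 in untreated old against young and -1.27 ± 0.23 in treated against untreated old livers, and -2.50 in treated against young livers. For Cdkn2c the same values were -0.75 ± 0.18, -0.94 ± 0.18 and -1.69. Serpine2 had 2.18 ± 0.17, 0.08 ± 0.17 and 2.27, so nearly all of its difference stood between young and untreated old libraries. Cebpb had 0.0 ± 0.14, 0.96 ± 0.14 and 0.96, the reverse arrangement. Plin2 had -0.56 ± 0.15 and 1.0 ± 0.15, which have opposite signs, and 0.45 between treated and young livers. Angptl4 had -0.82 ± 0.18, 1.63 ± 0.18 and 0.81, again with opposite signs. Cxcl1 had 1.95 ± 0.42, 3.52 ± 0.42 and 5.47.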

How the data were processed

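For every library the authors deposited TPM values of 23444 gene symbols, quantified with kallisto against build mm10, per the submitters' processing notes. Its version, the annotation, strand use and the summing to genes are not stated there, in the labels or in the file headers. Symbols turned into dates were left out where they occurred more than once (4 rows) and kept otherwise (23 rows).

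Groups came from the labels. log2(TPM + 0.5) was compared for genes reaching 1 TPM in at least 3 of 9 libraries, in 1 fit of all 9 with group as the only term (limma 3.58.1, R 4.3.3, trended and robust variances, two-sided, Benjamini-Hochberg over 10161 genes). TPM does not carry the depth of a library, so intervals from counts could not be made.

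The 50 pathway and 13 marker lists hold 1446 members (1435 found by symbol, 7 by synonym, 4 not found). Members and lists were chosen with earlier results of these data known. Genes named come from the 15 largest rises and 15 largest falls (called, no overlap, a mean of at least 5 TPM in the higher group, no predicted or clone name), from up to 4 called members and 2 others of each list, and from a fixed set of cell cycle, chromatin and lipid genes; not all of these are printed. Others are marked as named after their values were seen. Called members of 2 lists are not reported here by name. Alternatives changed the pseudocount, filter, libraries, scaling, variance model, weights and replicate block, or left out a library. Leaving out an untreated old library, and the block within 6 libraries, were added after seeing the data. Positions and sequences are from RefSeq.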

Additional observations from a re-analysis of the deposited data

How the results depend on the processing

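The count of 699 called genes stayed within 1.5 times under other pseudocounts, filters, scalings and variance models (495 to 755). It was 1282 in a fit of only the 6 young and treated libraries, 1354 with array weights and 1263 without untreated old replicate 3. Leaving out a young or treated library gave 153 to 475. The 177 genes of larger change were 113 with the filter at 5 TPM, 135 and 232 with pseudocounts of 1 and 0.1, 230 in the 6 libraries alone, 247 with the replicate block in these, 224 without untreated old replicate 3, and 80 to 186 over the fits that left out a young or treated library.

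Whether replicate numbers mark pairs is not stated in the labels and was not settled here. The deviations of same-numbered young and treated libraries correlated at 0.133, 0.0712 and 0.0763, and those of differently numbered ones at -0.0809 to -0.00177. Each of these libraries correlated best with its own number, though all these correlations were low. Same-numbered young and untreated old libraries correlated at -0.114, -0.22 and -0.162. Same-numbered untreated old and treated libraries correlated at -0.101, 0.0558 and 0.166. With the replicate block 492 genes were called, and 1206 with the replicate block in the 6 libraries alone.

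Of 163 called genes named, Gstp2 not counted, 44 stayed called whichever young or treated library was left out. Lost were 48 with no filter, 22 with median-of-ratios scaling, 25 with quantile normalization, 10 without the variance trend, 35 with the block, 7 after rescaling to the listed genes and 2 with a pseudocount of 0.1. None of them changed sign in these alternatives. Of uncalled genes, Cdk4 had a fold change of 0.00703 and Ep300 0.0162 with median-of-ratios scaling, Ep300 0.0877 with quantile normalization, and Dgat1 0.0731 and 0.0195 with these scalings and -0.0924 to 0.0155 over the fits without a library. The cause was not tested. Depth is unknown, so its effect on genes near 1 TPM, such as Aurka, could not be measured.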
